A study of Mus musculus with 8 samples.

Results

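The genes described here encode the proteins of the mitochondrial ribosome that carry an Mrpl or Mrps symbol, written MRP genes below. They were taken by name from the deposited table of counts per gene symbol: every symbol that begins with Mrpl or Mrps, goes on with a number and may end in a, b or c, with a mean of at least 1 CPM (read counts scaled to the size of the library) over the libraries. The name fitted 77 of the 24421 symbols, and all 77 passed the level. The mean nearest to that limit was 16.4 CPM for Mrpl52, the highest was 162 CPM for Mrpl12, and no symbol of this name fell below it. Bone marrow of C57BL/6 mice gave the cells. They express MLL-AF10, which joins the methyltransferase MLL to AF10 and drives leukaemia, and were cultured in methylcellulose with the cytokines SCF, IL-3 and GM-CSF. In the MATIP line both copies of Tip60 (gene Kat5, a lysine acetyltransferase of histones and other proteins) are floxed, and the cells also hold Cre-ERT2, a recombinase that 4-hydroxytamoxifen (4-OHT) switches on. MAflox is the MLL-AF10 flox line that serves as its comparison, and its labels give no statement about Cre-ERT2. Each line received 100 nM 4-OHT or the solvent ethanol (EtOH) for 4 days, which makes 4 groups of 2 RNA libraries. The labels leave unsaid whether paired libraries are separate cultures. The p-values therefore measure only the spread between these libraries, which may be technical.

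Mitochondria keep a small genome whose messages specify core subunits of the respiratory chain and ATP synthase, and they translate them on a ribosome of their own. The rRNA of that ribosome is transcribed inside the organelle, while all of its proteins are encoded in the nucleus, made in the cytosol and imported. Some of these proteins descend from bacterial ribosomal proteins and others are found only in mitochondrial ribosomes, where most of them occupy positions with no protein in the bacterial ribosome. Proliferating blood progenitors rely on this machinery, and inhibitors of mitochondrial translation are toxic to leukaemia cells in culture.

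Promoter sequences of MRP genes are shown because most of these genes fell together in MATIP, and because nuclear factors known to act on genes of mitochondrial function (NRF1, the ETS family factor GABP, YY1) bind short motifs near transcription starts. RefSeq promoters (build GRCm38.p6) that reach from 250 bases before a start to 50 after it matched 68 of the 77 genes. The ETS motif CCGGAAG, searched on both strands like the others, stood in 25 of these 68 (36.8%), in 19.2% of the 10391 tested genes with a promoter and in 8.86% of all 32851 promoters. The NRF1 core GCATGCGC was found in 8 genes (11.8%, against 5.75% of tested genes and 2.71% of all promoters). The YY1 motif AAGATGG was present in 13 (19.1%, against 8.29% and 6.34%), and the E-box CACGTG bound by MYC in 5 (7.35%, against 11.4% and 7.15%). A match is a description of letters and no evidence of binding. The 120 bases before the RefSeq start follow for 6 genes: Mrpl12 (chr11:120484517-120484636, plus strand), Mrpl17 (chr7:105811088-105811207, minus strand) and Mrps27 (chr13:99344666-99344785, plus strand), which are among the genes with the lowest MATIP response, Mrpl32 (chr13:14613038-14613157, minus strand), with the most NRF1 matches, Mrpl33 (chr5:31613831-31613950, plus strand), whose response to 4-OHT was called in neither line, and Mrpl27 (chr11:94653671-94653790, plus strand), which was higher after 4-OHT in both lines. Capitals mark NRF1 core matches in Mrpl17, Mrpl32 and Mrpl33 and ETS matches in Mrps27 and Mrpl27, on either strand.
Mrpl12: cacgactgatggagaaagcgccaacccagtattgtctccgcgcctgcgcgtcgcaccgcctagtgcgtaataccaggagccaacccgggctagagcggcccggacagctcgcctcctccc
Mrpl17: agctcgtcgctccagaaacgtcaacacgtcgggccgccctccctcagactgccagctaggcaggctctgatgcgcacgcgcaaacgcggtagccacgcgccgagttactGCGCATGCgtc
Mrps27: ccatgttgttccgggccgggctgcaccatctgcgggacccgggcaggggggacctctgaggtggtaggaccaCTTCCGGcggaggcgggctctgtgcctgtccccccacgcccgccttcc
Mrpl32: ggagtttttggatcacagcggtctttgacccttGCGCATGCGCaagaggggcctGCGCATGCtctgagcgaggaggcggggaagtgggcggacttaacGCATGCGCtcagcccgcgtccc
Mrpl33: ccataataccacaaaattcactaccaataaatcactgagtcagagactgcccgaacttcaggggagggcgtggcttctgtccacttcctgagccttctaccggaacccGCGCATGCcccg
Mrpl27: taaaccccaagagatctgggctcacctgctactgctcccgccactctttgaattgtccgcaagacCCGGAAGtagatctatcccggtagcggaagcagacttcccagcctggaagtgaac
Mrpl12 held none of the motifs in this stretch or in its whole window, while the single NRF1 core of Mrpl17 begins 11 bases before the start and the ETS match of Mrps27 begins 48 bases before it. Mrpl32 has 4 core matches, of which the pair that begins 87 and 85 bases before the start overlaps. Outside the printed stretches, Mrpl17 has an ETS match 237 bases before the start and Mrpl33 one that crosses the start, and YY1 matches lie 241 bases before the start of Mrpl32 and 14 after that of Mrps27. Mrpl33 and Mrpl17, one without a call and the other among the lowest responses, hold the same core at nearly the same place.

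Kat5, the targeted gene (mm10, chromosome 19, minus strand), was read first. It stood at 41.1 and 41.2 CPM in the MATIP EtOH libraries and at 8.11 and 8.32 CPM in the MATIP 4-OHT libraries, a fall of 5.01-fold (edgeR quasi-likelihood test, Benjamini-Hochberg adjusted p = 6.99e-15). In MAflox cells it went from 43.7 and 41.2 to 57.5 and 62.5 CPM and rose 1.41-fold (adjusted p = 7.50e-06). The 8 libraries held 41101309 to 57312490 counts and 14380 to 15822 detected genes. Summed levels of 10 mature neutrophil markers went from 204 to 209 CPM in MAflox EtOH to 49088 to 52496 CPM with 4-OHT, and from 731 to 868 to 33612 to 37165 CPM in MATIP, with 10 of 10 higher in each line. Summed levels of 10 monocyte and macrophage markers went from 492 to 522 to 6063 to 6235 CPM in MAflox and from 744 to 745 to 22241 to 23291 CPM in MATIP, where 10 of 10 rose against 9 of 10 in MAflox. The 10 genes of cycling cells summed to 3565 to 3714 CPM in MAflox EtOH and 3118 to 3275 with 4-OHT (5 lower, 1 higher), and to 3522 to 3562 CPM in MATIP EtOH and 1663 to 1677 with 4-OHT (9 lower, 0 higher). The 6 progenitor markers summed to 804 to 835 CPM in MAflox EtOH, 488 to 494 in MAflox 4-OHT, 732 to 737 in MATIP EtOH and 324 to 329 in MATIP 4-OHT, with 4 lower and 0 higher in MAflox and 3 lower and 1 higher (Kit) in MATIP. Summed mast cell and basophil markers lay between 17.3 and 54.1 CPM over the 8 libraries. Group means were 50.1 (MAflox EtOH), 53.6 (MAflox 4-OHT), 17.5 (MATIP EtOH) and 26.6 CPM (MATIP 4-OHT). Of the 4 tested, 3 rose and 1 fell in MAflox, and 2 rose and 1 fell in MATIP. Erythroid and megakaryocyte markers summed to between 1.39 and 6.79 CPM with Hbb-bs at 0 counts. Their group means in the same order were 2.21, 6.27, 1.58 and 4.66 CPM. Of the 4 tested, 1 rose and 0 fell in MAflox, and 1 rose and 1 fell in MATIP. These cell type markers moved with the treatment in the same libraries as the MRP genes, and their part in the MRP results was not tested. In such bulk libraries fewer cells of a type and less RNA per cell cannot be told apart.

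In MATIP cells nearly the whole family was lower after 4-OHT. Of the 77 MRP genes 66 fell and 3 rose at an adjusted p under 0.05, where 38.6% of the 13722 genes tested fell and 37.5% rose. That is 69 members called in either direction, beside 76.1% of all genes. The median log2 fold change of the MRP genes was -0.65, beside 0.00 for all genes tested, and the members ran from -2.01 (Mrpl12) to 0.34 (Mrpl48). In 68 members both 4-OHT libraries lay below both EtOH libraries, and in 3 both lay above, each against 44.2% of all genes. A fall of at least 2-fold was reached by 21 members, against 14.1% of all genes, and a rise of that size by 0 members, against 22.6%. Summed over the family, the level was 5174 and 4878 CPM in the EtOH libraries and 2985 and 3181 CPM in the 4-OHT libraries, a ratio of 0.613. Leaving out any 1 of the 4 MATIP libraries gave between 63 and 66 falls.

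**Figure D1:**
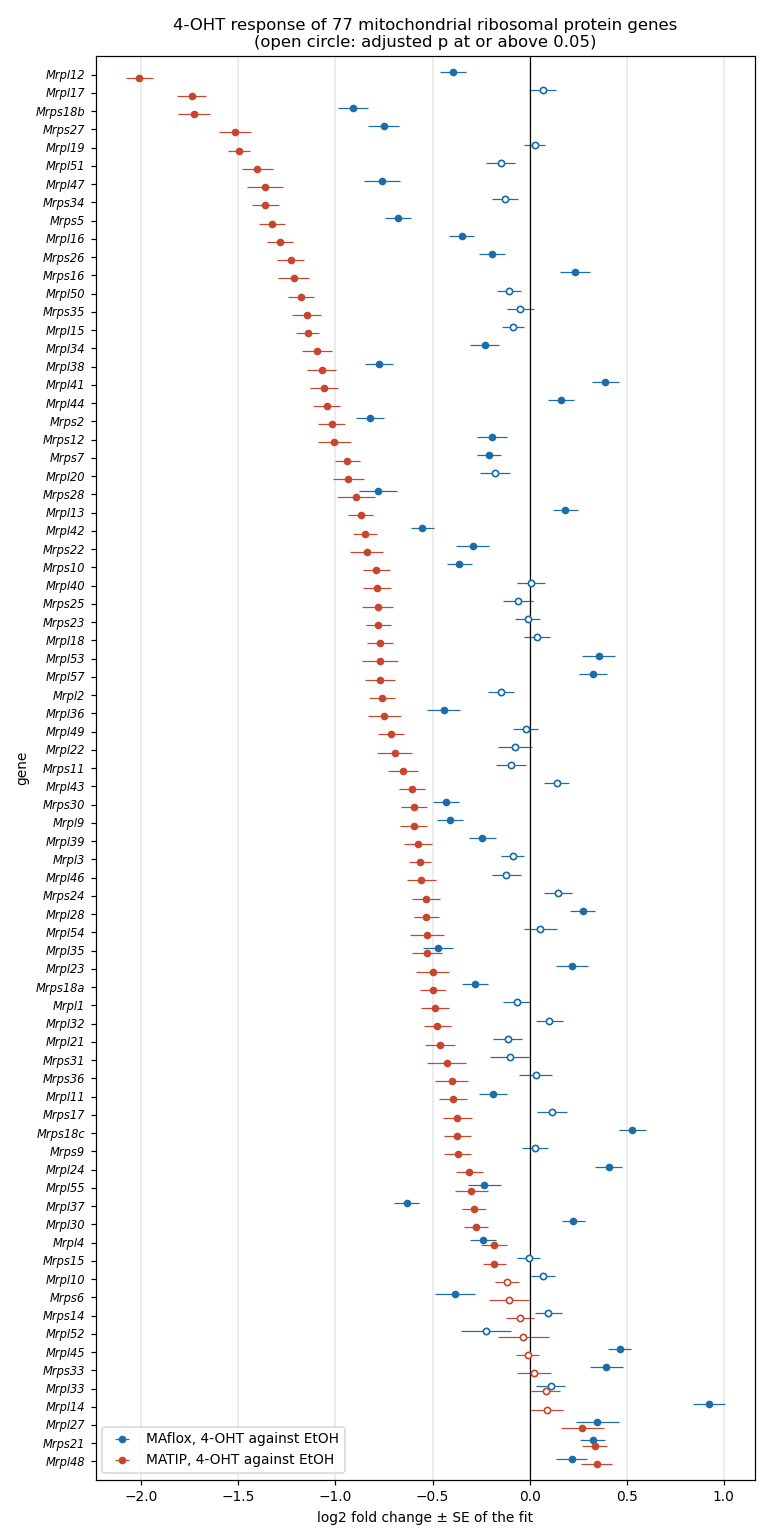
Log2 fold change of 4-OHT against EtOH (horizontal axis, bars are the standard error of the fit) for each of the 77 MRP genes, ordered by the MATIP value, in MAflox (blue) and MATIP (red). Open circles have an adjusted p of 0.05 or more, and the red points lie below 0 for 71 genes while the blue points lie below 0 for 46.

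Mrpl12 encodes the counterpart of the bacterial stalk protein L7/L12 and has also been reported to bind the mitochondrial RNA polymerase. Its gene lies on chromosome 11 (mm10, 120484613 to 120489065, plus strand). Its level was 221 and 190 CPM in MATIP EtOH and 49.7 and 52.4 CPM in MATIP 4-OHT, the lowest response of the family at -2.01 ± 0.071 (log2, SE), a 4.03-fold fall (edgeR adjusted p = 4.04e-15). In MAflox it went from 222 and 207 to 163 and 163 CPM, a smaller fall of -0.39 ± 0.067 (adjusted p = 3.91e-05). The 4-OHT libraries of each line lay below all of that line's EtOH libraries, and those of MATIP below every other library.

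Mrpl17, a large subunit protein with a bacterial counterpart (chromosome 7, 105803206 to 105811099, minus strand), was at 107 and 104 CPM in MATIP EtOH and at 29.7 and 33.2 CPM after 4-OHT, a fall of 3.34-fold (log2 -1.74 ± 0.076, adjusted p = 9.85e-14). The MAflox libraries held 112 and 97.3 CPM with EtOH and 106 and 113 CPM with 4-OHT, and these overlapped (log2 0.07 ± 0.071, adjusted p = 0.432). Mrpl19, another large subunit protein of bacterial descent, behaved alike, with 147 and 152 against 52.7 and 53.5 CPM in MATIP (log2 -1.50 ± 0.058, adjusted p = 1.54e-14) and 120 and 120 against 120 and 124 CPM in MAflox (adjusted p = 0.708). With the length and GC offset described further on, both were called higher in MAflox (log2 0.44 and 0.24, adjusted p = 7.35e-05 and 0.000639). For both genes the MATIP 4-OHT libraries stood far below the other 6.

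Mrps18b and Mrps27 were low after 4-OHT in each line. Mrps18b is 1 of 3 mouse relatives of bacterial S18, and its protein takes a position of its own in the small subunit. It held 56.3 and 54.0 CPM in MATIP EtOH and 17.8 and 15.5 CPM with 4-OHT (log2 -1.73 ± 0.083, adjusted p = 4.20e-13), and 59.5 and 55.4 against 31.3 and 29.9 CPM in MAflox (log2 -0.91 ± 0.080, adjusted p = 6.32e-09). Mrps27, a pentatricopeptide repeat protein of the small subunit, held 60.2 and 52.1 against 19.3 and 19.8 CPM in MATIP (log2 -1.52 ± 0.082, adjusted p = 2.28e-12) and 54.8 and 53.1 against 31.9 and 32.2 CPM in MAflox (log2 -0.75 ± 0.079, adjusted p = 8.36e-08). In each of these genes and lines the groups did not overlap, and the MATIP 4-OHT libraries were lower than the MAflox 4-OHT libraries. Among the 8 lowest MATIP responses were also Mrpl51 (log2 -1.40), Mrpl47 (-1.36) and Mrps34 (-1.36), which fell 2.64, 2.57 and 2.57-fold.

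**Figure D2:**
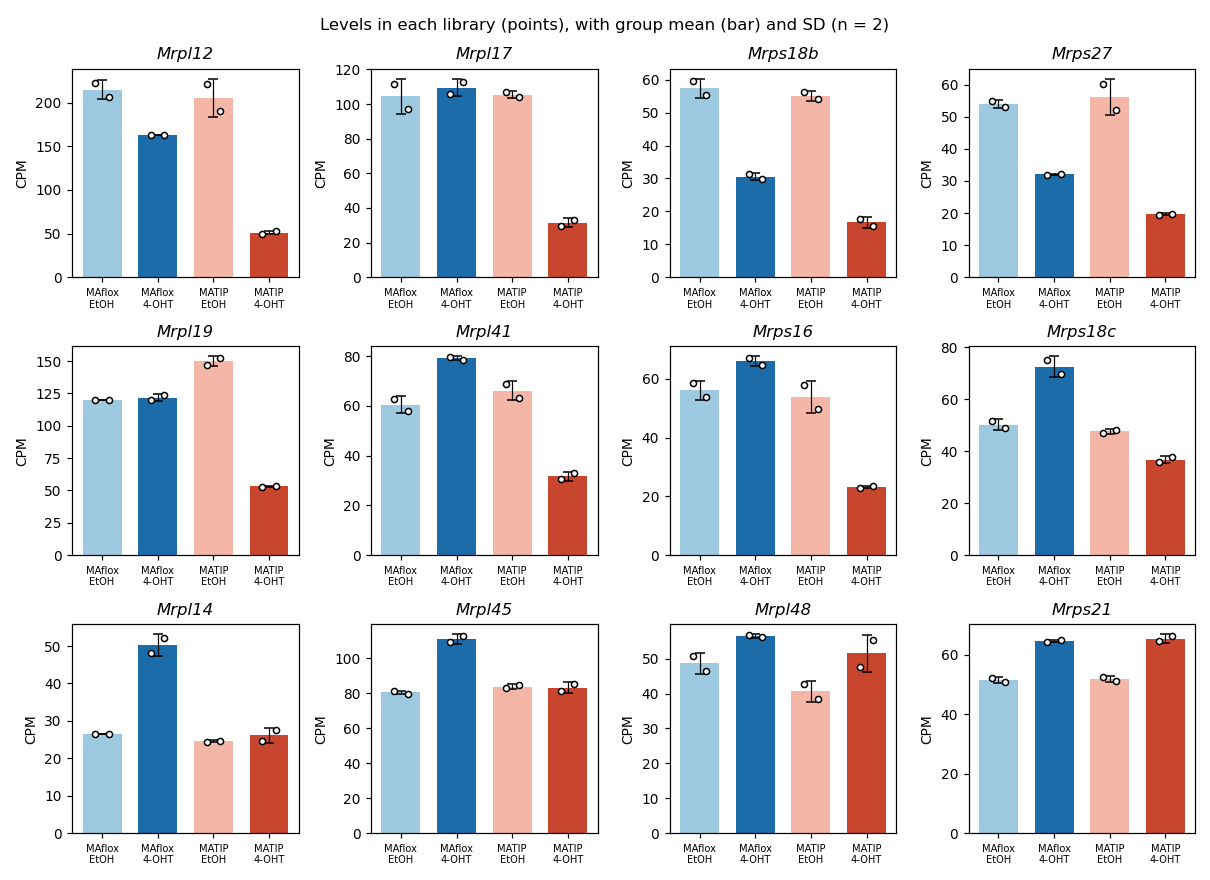
Level in CPM, scaled with TMM factors (vertical axes, from 0), of 12 MRP genes in each library (points), with the group mean (bar) and SD (n = 2). Mrpl12 is at 49.7 and 52.4 CPM in MATIP 4-OHT and at 163 CPM or more in the other 6 libraries, while Mrps21 is higher with 4-OHT in both lines, in MAflox not under the length and GC offset.

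The members that rose in MATIP were Mrpl48, Mrps21 and Mrpl27. Mrpl48, a mitochondrion-specific protein of the large subunit, went from 42.8 and 38.5 to 47.7 and 55.3 CPM (log2 0.34 ± 0.081, adjusted p = 0.000836). Mrps21, the counterpart of bacterial S21, went from 52.6 and 51.3 to 64.4 and 66.4 CPM (log2 0.33 ± 0.063, adjusted p = 9.25e-05). Mrpl27, whose bacterial counterpart sits near the peptidyl transferase centre, went from 35.1 and 32.9 to 36.1 and 45.7 CPM (log2 0.27 ± 0.11, adjusted p = 0.0313). The treated libraries lay above the controls in all 3, by little for Mrpl27, whose call was lost without MATIP 4-OHT replicate 2 (adjusted p = 0.395) or MATIP EtOH replicate 2 (0.134), with library totals alone (0.270) and with a length and GC offset (0.0695). No call in MATIP was made for Mrpl14 (log2 0.09), Mrpl33 (0.08), Mrps33 (0.02), Mrpl45 (-0.01), Mrpl52 (-0.03), Mrps14 (-0.05), Mrps6 (-0.11) and Mrpl10 (-0.12), a group named after its values were seen.

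Arranged by place in the ribosome, falls in MATIP were spread over all classes. In the large subunit 43 of 50 members fell and 2 rose (median log2 -0.60), and in the small subunit 22 of 26 fell and 1 rose (median -0.79). Of the large subunit proteins with a bacterial counterpart 26 of 30 fell (median -0.55), and of those found only in mitochondria 17 of 20 did (median -0.66). Of the small subunit proteins with a bacterial counterpart 13 of 16 fell (median -0.59), and of those found only in mitochondria 9 of 10 (median -0.99), Mrps33 being without a call. Mrps18a (large subunit) and Mrps18b (small subunit) are relatives of bacterial S18 but were counted here among those found only in mitochondria. No test compares these classes. Mrps12, the counterpart of the S12 protein that monitors decoding, fell in MATIP from 30.3 and 30.5 to 14.2 and 16.1 CPM (2.01-fold, adjusted p = 1.71e-09). Mrpl11, whose bacterial counterpart lies at the base of the stalk that carries Mrpl12, fell by less, from 64.0 and 55.8 to 43.9 and 47.1 CPM (log2 -0.39 ± 0.073, adjusted p = 7.88e-05). Mrps18a and Mrps30 bear small subunit symbols but their proteins sit in the large subunit, and they fell with log2 values of -0.50 and -0.60 (adjusted p = 1.79e-06 and 1.52e-07). Mrps18c, the third relative of S18, fell from 46.9 and 48.3 to 35.7 and 37.9 CPM (log2 -0.37 ± 0.071, adjusted p = 0.000112). Mrps36 keeps a ribosomal symbol although its protein is now known as part of the oxoglutarate dehydrogenase complex, and it fell from 35.4 and 37.2 to 25.2 and 29.8 CPM (log2 -0.40 ± 0.085, adjusted p = 0.000308).

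In MAflox cells the same treatment moved the family in both directions. Of the 77 genes 27 fell and 17 rose (10 rises and 54 falls with a length and GC offset, 7 and 48 with library totals, both taken up further on), where 32.1% of all genes tested fell and 33.1% rose. The 44 members called in either direction stand beside 65.2% of all genes, and 0 moved by 2-fold or more in either direction (8.29% of all genes fell and 13.7% rose by that much). The median log2 fold change was -0.09, beside 0.02 for all genes. In 39 members both 4-OHT libraries lay below both EtOH libraries and in 23 above, against 39.7% and 41.4% of all genes. The summed level was 5303 and 5087 CPM with EtOH and 4910 and 4948 CPM with 4-OHT, a ratio of 0.949. The number of rises was 11 without MAflox EtOH replicate 2 or without MAflox 4-OHT replicate 1.

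The lowest MAflox responses after Mrps18b were those of Mrps2 (73.3 and 69.8 to 39.0 and 42.0 CPM, log2 -0.82 ± 0.072, adjusted p = 6.37e-09), Mrps28 (37.3 and 36.0 to 21.9 and 20.8 CPM, log2 -0.78 ± 0.096, adjusted p = 7.17e-07) and Mrpl38 (65.0 and 66.0 to 40.6 and 35.9 CPM, log2 -0.78 ± 0.072, adjusted p = 1.59e-08). Mrps2 and Mrps28 are small subunit proteins with bacterial counterparts, and Mrpl38 is specific to the mitochondrial large subunit. Mrpl47 (-0.76), Mrps27 (-0.75), Mrps5 (-0.68) and Mrpl37 (-0.63) followed, with adjusted p from 3.04e-08 to 5.28e-07. Mrps30 and Mrps18a fell by less (log2 -0.43 and -0.28), and the small falls of Mrps12 (log2 -0.19, adjusted p = 0.0368) and Mrpl11 (log2 -0.19, adjusted p = 0.0302) lost their calls whenever any 1 MAflox library was left out, the one for Mrps12 also under DESeq2 (adjusted p = 0.0641) and without a filter (0.0694). Mrps36 was not called (35.2 and 36.1 CPM with 4-OHT, 34.5 and 35.2 with EtOH), but fell with the length and GC offset (log2 -0.56).

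Mrpl14 had the highest MAflox response. Its protein, a counterpart of bacterial L14, lies at the interface of the subunits. The level was 26.4 and 26.5 CPM with EtOH and 48.2 and 52.3 CPM with 4-OHT (log2 0.93 ± 0.082, adjusted p = 7.19e-09), and 24.4 and 24.7 against 24.6 and 27.6 CPM in MATIP (adjusted p = 0.344). The MAflox 4-OHT libraries thus stood above the other 6, which lay between 24.4 and 27.6 CPM. Mrps18c rose in MAflox from 51.7 and 48.8 to 75.3 and 69.6 CPM (log2 0.53 ± 0.070, adjusted p = 1.79e-06), Mrpl45 from 81.3 and 79.9 to 109 and 113 CPM (log2 0.46 ± 0.059, adjusted p = 1.03e-06), and Mrpl24 from 51.3 and 47.9 to 65.8 and 65.7 CPM (log2 0.41 ± 0.068, adjusted p = 3.35e-05). Mrpl45 encodes a protein near the exit of the peptide tunnel that helps to hold the ribosome at the inner membrane. Mrps33 rose from 28.3 and 25.1 to 34.7 and 35.4 CPM (log2 0.39 ± 0.086, adjusted p = 0.000486).

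MRP transcripts are short, with a median longest annotated transcript of 1849 bases against 3245 bases for all genes tested, and in MAflox the shorter genes of the whole table had a higher median response than the longer ones. In groups of equal size by transcript length, the median log2 fold change of all genes in MAflox was 0.24 for the shortest, 0.02 for the middle and -0.24 for the longest group, and in MATIP it was -0.03, -0.03 and 0.08. With an offset fitted in each library for its trend with the length and GC content of transcripts, MAflox had 10 rises and 54 falls (median -0.30) in place of 17 and 27, and MATIP had 3 and 68 (median -0.74). The median of all genes was then 0.00 in MAflox and -0.02 in MATIP. Without the offset the MRP genes of the short, middle and long groups (47, 20 and 10 genes) had MAflox medians of -0.08, -0.17 and -0.01. These did not follow the order of all genes. With the offset they were -0.40, -0.24 and 0.24, so the MAflox values of MRP genes then rose with length. In MATIP the medians were -0.60, -0.58 and -1.15 without the offset and -0.71, -0.56 and -1.09 with it. Of all genes 23.8% then fell in both lines, 5.04% in MAflox alone and 9.84% in MATIP alone. Rises were 20.7% in both, 5.56% in MAflox alone and 12.2% in MATIP alone. Another 6.37% rose in MAflox and fell in MATIP, and 3.91% did the reverse. In MAflox 6 of the 17 rises remained (Mrpl13, Mrpl14, Mrpl23, Mrpl45, Mrpl48, Mrpl57), 5 became falls (Mrpl30, Mrpl41, Mrpl44, Mrps21, Mrps33), 6 lost their call, and 26 of the 27 falls remained. Of the genes without a call 23 became falls, and Mrpl17, Mrpl19, Mrps17 and Mrps25 became rises. In MATIP all 66 falls remained. Mrpl14 kept a log2 value of 0.54 in MAflox and Mrpl45 one of 0.38, while Mrps18c went to -0.13 and Mrpl24 to -0.03. With library totals in place of TMM factors MAflox had 7 rises and 48 falls, and that scaling moved the median of all genes to -0.15 in MAflox and -0.13 in MATIP. Relative to all genes, the MRP median was then -0.11 in MAflox and -0.66 in MATIP, beside -0.10 and -0.66 with TMM factors.

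**Figure D3:**
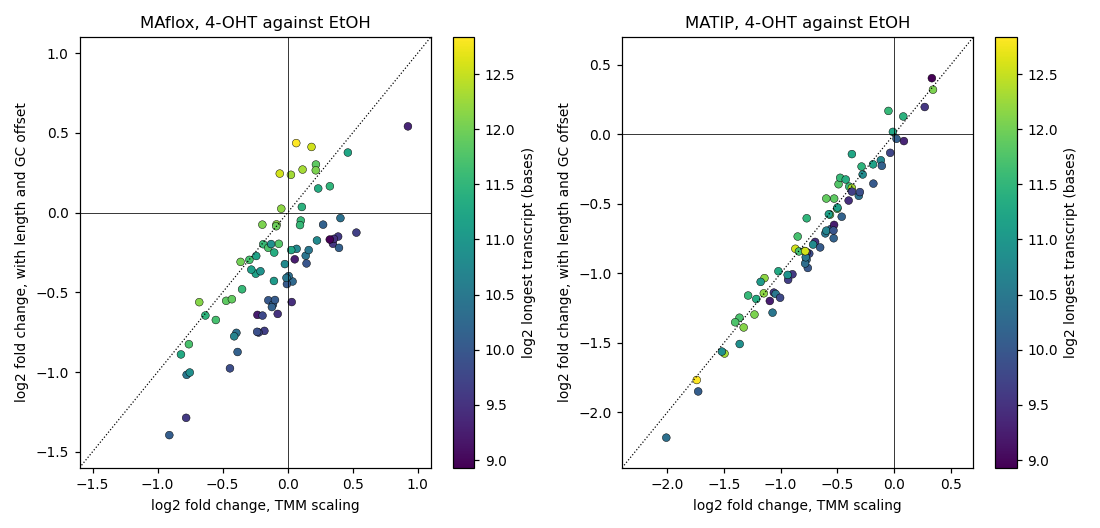
Log2 fold change of each MRP gene with an offset for transcript length and GC content (vertical axis) against the value without it (horizontal axis), in MAflox (left) and MATIP (right), coloured by log2 of the longest transcript in bases. The dotted line marks equal values: short transcripts lie below it in MAflox, where the family median goes from -0.09 to -0.30, and points stay close to it in MATIP.

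The difference between the lines was tested gene by gene as the MATIP response minus the MAflox response. MAflox is no unchanged control, since 65.2% of all genes were called there after 4-OHT. The part of Tip60 loss in the difference was not tested. It was negative and called for 57 of the 77 MRP genes and positive for 1, where 33.6% and 28.3% of all genes were called in these directions (46 and 7 members with the length and GC offset). In either direction 58 members were called, beside 61.9% of all genes. The median difference was -0.58 (log2), beside -0.03 for all genes, and 15 members differed by at least 2-fold in the negative direction, against 11.4% of all genes. Mrpl17 had the lowest difference at -1.81 ± 0.10 (adjusted p = 3.31e-11), followed by Mrpl12 (-1.62 ± 0.097, adjusted p = 5.67e-11) and Mrpl19 (-1.52 ± 0.080, adjusted p = 9.97e-12). Mrps16 and Mrpl41 were next. Mrps16, the counterpart of bacterial S16, held 57.7 and 49.9 against 22.8 and 23.4 CPM in MATIP and 58.4 and 53.7 against 67.1 and 64.8 CPM in MAflox, a difference of -1.45 ± 0.11 (adjusted p = 1.61e-09). Mrpl41, found in mitochondria only, held 69.0 and 63.3 against 30.5 and 32.9 CPM in MATIP and 62.9 and 58.0 against 79.7 and 78.6 CPM in MAflox, a difference of -1.45 ± 0.10 (adjusted p = 3.99e-10). In these 2 genes every treated MATIP library was lower and every treated MAflox library higher than its controls. The MAflox rise of Mrpl41 became a fall with the length and GC offset (log2 -0.15, adjusted p = 0.0330) and that of Mrps16 lost its call (adjusted p = 0.0755), while both differences stayed called (log2 -0.99 and -1.34). With the length and GC offset the median difference was -0.37, beside -0.07 for all genes, and the share of all genes called under it is not given here.

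Mrpl37, which pairs with the Mrps30 protein in the large subunit, was the gene with a called positive difference, 0.35 ± 0.090 (adjusted p = 0.00262). It fell in both lines, from 72.8 and 72.5 to 48.2 and 45.5 CPM in MAflox (log2 -0.63) and from 68.3 and 71.6 to 57.8 and 57 CPM in MATIP (log2 -0.29). The other high values, Mrps6 (0.28), Mrpl52 (0.19), Mrpl48 (0.13) and Mrpl4 (0.06), were not called. With the length and GC offset Mrps6 (log2 0.65) and Mrpl52 (0.62) were called positive. So were Mrps21 (0.57), Mrpl37 (0.41), Mrpl27 (0.39), Mrpl55 (0.33) and Mrps14 (0.25). Mrps18b differed by -0.82 ± 0.11 (adjusted p = 4.47e-06), Mrps18c by -0.90 ± 0.10 (adjusted p = 2.42e-07), Mrps12 by -0.81 ± 0.11 (adjusted p = 4.80e-06) and Mrps36 by -0.43 ± 0.12 (adjusted p = 0.00415), and no difference was called for Mrpl11, Mrps30 or Mrps18a (adjusted p = 0.0900, 0.132 and 0.0534). The difference for Mrps36 turned to 0.085 with the length and GC offset (adjusted p = 0.545) and was lost without MATIP 4-OHT replicate 1 (adjusted p = 0.0546).

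Read together, the calls of the lines fall into few patterns. The largest holds 29 genes without a call in MAflox that fell in MATIP, against 10.4% of all genes, and for 27 of them (8.32% of all genes) the difference of responses was called too. With the length and GC offset 4 of the 29 stayed without a MAflox call, 21 fell and 4 rose there, and the negative difference was called for 21. A further 26 genes fell in both lines, against 21.2% of all genes, and 16 of these fell by more in MATIP by the test of the difference (9.83% of all genes). With the offset the genes lower in both lines became the largest group, 51 members against 23.8% of all genes, and the negative difference was called for 13 of the 26. Another 11 rose in MAflox and fell in MATIP, against 6.92% of all genes: Mrpl13, Mrpl23, Mrpl24, Mrpl28, Mrpl30, Mrpl41, Mrpl44, Mrpl53, Mrpl57, Mrps16 and Mrps18c, with the difference called in all 11. With the offset 3 of the 11 (Mrpl13, Mrpl23, Mrpl57) stayed MAflox rises, 3 became falls and 5 lost the call, and the difference was called for 10, not for Mrpl30 (adjusted p = 0.210). Mrpl14, Mrpl45 and Mrps33 rose in MAflox without a call in MATIP and had a called negative difference, where 5.97% of all genes had these calls and 4.24% also the difference. With the offset Mrpl14 and Mrpl45 kept these calls, against 5.56% of all genes. Mrps33 then fell in MAflox (log2 -0.22, edgeR adjusted p = 0.0178), and its difference was 0.19 and not called (adjusted p = 0.150). Mrps6 fell in MAflox without a call in MATIP, against 5.66% of all genes, and its difference was not called. With the offset Mrps6 was lower in both lines, and its positive difference was called (log2 0.65, edgeR adjusted p = 0.000515). Mrpl27, Mrpl48 and Mrps21 rose in both lines, against 20.3% of all genes (with the offset Mrpl48 alone, against 20.7%), and Mrpl10, Mrpl33, Mrpl52 and Mrps14 had no call in either, against 12.3%. With the offset Mrpl27 and Mrpl33 had no call in either line, against 12.6% of all genes. Mrpl10 then fell in both lines, Mrpl52 fell in MAflox alone (5.04% of all genes) and Mrps14 rose in MATIP alone (12.2%). The opposite pattern, lower in MAflox and higher in MATIP, held 0 members against 5.16% of all genes (with the offset Mrps21, against 3.91%). Across the 77 genes the responses of the lines had a Pearson r of 0.47 and a Spearman rho of 0.42, and with the length and GC offset 0.30 and 0.27, a description over genes that share their libraries.

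**Figure D4:**
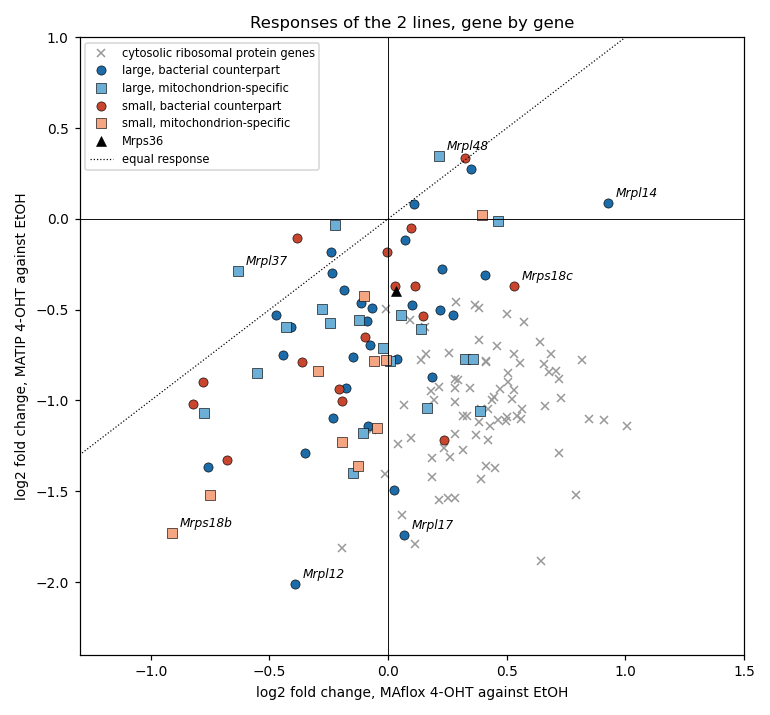
Log2 fold change in MATIP (vertical axis) against that in MAflox (horizontal axis) for the 77 MRP genes, by subunit and class. The S18 relatives Mrps18a and Mrps18b are shown as mitochondrion-specific. Cytosolic ribosomal protein genes are grey crosses (Rpl3l, at 3.70 and 1.90, is off the axes). Most MRP genes lie below the dotted line of equal response and on both sides of 0 along the horizontal axis, while most crosses lie to the right of 0, where the length and GC offset leaves 28 of 82 called higher and 27 lower, and below it.

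Before treatment the lines were closer. With EtOH 10 MRP genes were lower and 2 higher in MATIP than in MAflox, where 11.7% of all genes were lower and 20.3% higher (8 and 4 members with the length and GC offset), and 0 differed by 2-fold or more, beside 3.58% of all genes lower and 4.49% higher by that much. The 12 calls in either direction stand beside 32% of all genes, and the median difference was -0.06 (log2) beside 0.02. With the offset these medians were -0.01 and 0.03, and the share of all genes called under it is not given here. Mrps12 had the lowest value, at 46.3 and 45.2 CPM in MAflox and 30.3 and 30.5 CPM in MATIP (log2 -0.59 ± 0.079, adjusted p = 9.63e-06), so the MATIP libraries already held less of it without 4-OHT. Mrpl57 was at 50.9 and 50.6 against 40.5 and 36.4 CPM (log2 -0.40 ± 0.072, adjusted p = 0.000279). Mrpl52, Mrps28 and Mrps10 were also lower (log2 -0.42, -0.26 and -0.26). Mrpl19 was higher in MATIP at 147 and 152 against 120 and 120 CPM (log2 0.33 ± 0.056, adjusted p = 0.000154), as was Mrpl16 by a small margin (log2 0.18, adjusted p = 0.0399). In 37 members both MATIP libraries lay below both MAflox libraries and in 8 above, against 28.4% and 35.8% of all genes. The number lower was 4 without MAflox EtOH replicate 1 and 3 without MATIP EtOH replicate 2.

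Other nuclear genes for mitochondrial gene expression were read from lists written with the MRP genes. Their counts stand beside 32.1% of all genes tested that fell and 33.1% that rose in MAflox, and 38.6% and 37.5% in MATIP. The difference of responses was negative and called for 33.6% of all genes and positive for 28.3%. The 6 mitoribosomal proteins with other symbols (Dap3, Ptcd3, Chchd1, Aurkaip1, Gadd45gip1 and Ict1) had 3 rises (1 with library totals) and 2 falls in MAflox and 0 rises and 4 falls in MATIP, and the difference was negative and called for all 6. Gadd45gip1, a large subunit protein, went from 89.2 and 87.6 to 23.7 and 24.5 CPM in MATIP (log2 -1.87 ± 0.064, adjusted p = 2.21e-15) and from 101 and 104 to 76.7 and 78.4 CPM in MAflox (log2 -0.40 ± 0.059, adjusted p = 6.80e-06). Ptcd3, of the small subunit, fell in MATIP with a log2 value of -1.46 ± 0.062 (adjusted p = 6.82e-14). Aurkaip1, also of the small subunit, rose in MAflox from 89.9 and 84.1 to 142 and 138 CPM (log2 0.69 ± 0.065, adjusted p = 2.00e-08) and fell in MATIP (log2 -0.40, adjusted p = 1.84e-05).

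Of 26 genes for mitoribosome assembly and rRNA modification 10 fell and 6 rose in MAflox, beside 32.1% and 33.1% of all genes. The MAflox medians were -0.12 for the list and 0.02 for all genes. The MAflox counts were 11 and 3 under the length and GC offset and 15 and 0 with library totals. In MATIP 17 fell and 1 rose (median -0.45), beside 38.6% and 37.5% of all genes. The difference of responses was negative and called for 15 and positive for 3 (median -0.38), beside 33.6% and 28.3% of all genes. The 6 rises became 2 without MAflox EtOH replicate 2 and 3 without MAflox 4-OHT replicate 2. The helicase Dhx30 had a log2 value of -1.25 ± 0.073 in MAflox (adjusted p = 1.67e-11) and Wbscr16, now named Rcc1l, one of -1.07 ± 0.11 (adjusted p = 5.68e-08). In MATIP the GTPase Noa1 (log2 -1.02 ± 0.079, adjusted p = 5.60e-10) and the RNA-binding protein Fastkd2 (log2 -0.93, adjusted p = 7.56e-10) had the smallest p-values. Mettl15, an rRNA methyltransferase named here after its values were seen, was the 1 gene that rose in MATIP, from 2.81 and 3.92 to 7.18 and 8.18 CPM (log2 1.18 ± 0.20, adjusted p = 2.24e-05).

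Among 15 translation factors 9 fell and 1 (Mtif3) rose in MAflox (median -0.34), and 14 fell and 0 rose in MATIP (median -0.76). Of all genes 32.1% fell and 33.1% rose in MAflox, and 38.6% fell and 37.5% rose in MATIP. Tufm, the elongation factor that delivers aminoacyl-tRNA to the mitoribosome, fell in both, from 148 and 143 to 62.1 and 61.4 CPM in MAflox (log2 -1.24 ± 0.057, adjusted p = 5.69e-13) and from 155 and 153 to 67.1 and 66.9 CPM in MATIP (log2 -1.20 ± 0.057, adjusted p = 3.14e-13). Lrpprc, which stabilises mitochondrial messages, did the same with -1.02 ± 0.056 and -1.16 ± 0.056 (adjusted p = 6.96e-12 and 3.88e-13). The difference of responses was negative and called for 9 of the 15 factors and positive for 0 (median -0.38). Of all genes 33.6% and 28.3% were called in these directions. For Tufm and Lrpprc the difference was not called (edgeR adjusted p = 0.717 and 0.115). Of 12 genes for mitochondrial transcription and DNA maintenance 5 fell (9 with library totals) and 0 rose in MAflox (median -0.22), and 10 fell and 0 rose in MATIP (median -0.74). Their difference of responses was negative and called for 6 and positive for 1 (median -0.37). Peo1, the mitochondrial DNA helicase now called Twnk, had log2 values of -0.94 ± 0.082 in MAflox and -1.80 ± 0.087 in MATIP (adjusted p = 6.06e-09 and 4.19e-13). The topoisomerase Top1mt fell in MAflox (log2 -1.50, adjusted p = 5.39e-09), and the single-strand binding protein Ssbp1 fell in MATIP (log2 -0.80, adjusted p = 4.58e-09).

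Regulators of mitochondrial biogenesis fell in 8 of 11 cases in MAflox (median -0.35) and in 8 of 11 in MATIP (median -0.72), beside 32.1% and 38.6% of all genes. The difference of responses was positive and called for 5 and negative and called for 5, with a median of 0.40. Of all genes 28.3% and 33.6% were called in these directions. Pprc1, a coactivator related to PGC-1, went from 85.7 and 90.8 to 23.2 and 20.2 CPM in MAflox (log2 -2.03 ± 0.077, adjusted p = 3.32e-14) and from 116 and 106 to 37.9 and 37.6 CPM in MATIP (log2 -1.56 ± 0.074, adjusted p = 3.33e-13). Hcfc1, a chromatin cofactor of several transcription factors, had log2 values of -1.72 ± 0.066 and -0.97 ± 0.064 (adjusted p = 3.81e-14 and 6.03e-11). The exceptions were named after their values were seen. Esrra rose in MAflox (log2 0.52). Myc fell in MAflox from 339 and 335 to 227 and 197 CPM (log2 -0.67 ± 0.064) and rose in MATIP from 348 and 371 to 443 and 448 CPM (log2 0.31 ± 0.063, adjusted p = 0.000212). Ppargc1a, at 0.0435 and 0.0335 CPM in MATIP EtOH, was at 4.43 and 3.61 CPM in MATIP 4-OHT.

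**Figure D5:**
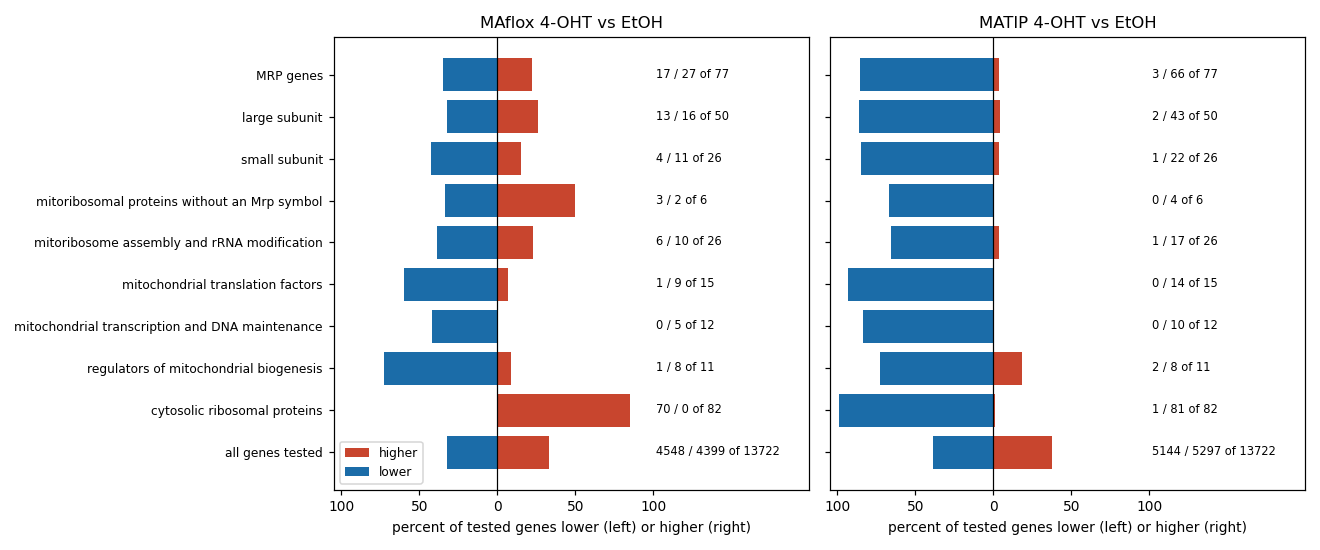
Percent of the tested genes of each list called higher (right, red) or lower (left, blue) with 4-OHT in MAflox and in MATIP, with counts as higher / lower of tested. The MRP bar is mostly blue in MATIP (66 of 77 lower) and mixed in MAflox, and the cytosolic ribosomal protein genes go from 70 of 82 higher in MAflox (28 higher and 27 lower with the length and GC offset) to 81 of 82 lower in MATIP.

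The cytosolic ribosome, built from a different set of proteins, gave the nearest comparison. Its 82 genes had 81 falls and 1 rise in MATIP (median log2 -1.02) and 70 rises and 0 falls in MAflox (median 0.40), the latter changing to 28 rises and 27 falls under the length and GC offset and to 52 and 4 with library totals. The difference of responses was negative and called in all 82 (median -1.46). Their summed level went from 66033 and 62111 to 30922 and 33968 CPM in MATIP and from 71962 and 69621 to 94982 and 93018 CPM in MAflox. In MATIP the MRP median of -0.65 was thus less negative than the cytosolic one, a comparison of medians without a test.

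In the authors' deposited table of fold changes, 26 MRP genes were lower and 16 higher in MAflox (median log2 -0.08) and 63 lower and 3 higher in MATIP (median -0.61) at an adjusted p under 0.05, and 41 and 66 genes were called there and here. The sign of the fold change was the same for all 77 genes in MAflox and for 75 in MATIP. The share of all genes called in the authors' table is not given here. By the edgeR test used here 32.1% of all genes fell and 33.1% rose in MAflox, and 38.6% fell and 37.5% rose in MATIP. By annotation 32 MRP genes share exon bases with a neighbour, which lies on the opposite strand for 27 and on the same strand for 8. Mrpl12 shares 200 of 1532 exon bases with the antisense gene Gm16755, Mrpl19 shares 1962 of 5450 with Gcfc2, Mrps18b shares 638 of 2089 with Gm16279 and Mrps34 shares 1309 of 2064 with Mapk8ip3 and 763 with Nme3. The largest shared stretch was that of Mrps25 with Nr2c2 (4590 of 6576 bases), and Mrpl53 shares 695 of 790 with Gm42688. Whether the counting used strand is not given in the sources used here, so counts of such pairs may be shared.

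Response and promoter motif were set side by side as a description. In MATIP the median log2 fold change was -0.77 for the 25 genes with an ETS match and -0.56 for those without, -0.65 and -0.60 for YY1, -0.59 and -0.60 for the NRF1 core, and -0.75 and -0.60 for the E-box. The 29 genes with none of the motifs had a median of -0.50. In MAflox the medians were -0.01 with and -0.10 without an ETS match, and -0.22 with and -0.01 without a YY1 match. No test compares genes with and without a match.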

How the data were processed

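RNA was sequenced from 8 libraries in 4 groups of 2, assigned by their titles. The deposited counts are whole-number read counts per gene symbol, not normalized, per the file headers and values. The submitters' processing notes name mm10, featureCounts 1.6.4, HISAT2 2.1.0, DESeq2 and Trimmomatic 0.38.0. Not given in the sources used here are the annotation, strandedness and multi-mapping. No filled column lacked a sample, and 23 columns were empty. A second deposited table holds the authors' log2 fold changes and the authors' adjusted p-values, per the file headers.

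Genes passing filterByExpr (minimum count 10, minimum total 15) numbered 13722. They were tested with edgeR 4.0.16 (R 4.3.3, quasi-likelihood, TMM factors) over all libraries, with 1 coefficient per group, Benjamini-Hochberg adjustment within a contrast and a threshold of 0.05. Levels are CPM over TMM-scaled totals, not corrected for length. The SE is the log2 fold change over the root of F. Replicates differed beyond sampling noise (chi-square per degree of freedom between 7.09 and 13.1). Scripts were tested on simulated data. Alternatives were DESeq2 1.42.0, library totals, no filter, a replicate block, a length and GC offset (known for 96.2% of genes), fewer groups and leaving out libraries. Positions and lengths come from GENCODE M21, promoters from RefSeq.

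The members, lists, tests and naming rule were chosen with earlier results of these data known. Named were the 8 lowest and 5 highest responses per line, 5 at each end of the other contrasts, Kat5, Mrpl12, Mrpl11, Mrps12, Mrps30, Mrps36, Mrps18a, Mrps18b and Mrps18c throughout, and the 2 smallest p-values of each list. Mitochondrially encoded transcripts were not analysed here. A further marker list is not reported here. Mrp63 was not matched (Mrpl57 is a member). Mrm2, Mrm3, Rcc1l and Twnk were read as Ftsj2, Rnmtl1, Wbscr16 and Peo1.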

Additional observations from a re-analysis of the deposited data

Results flagged for a closer look

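The response to 4-OHT differed between the lines by its own test for 57 MRP genes in the negative direction (MATIP below MAflox) and for 1 in the positive direction. Of all genes tested 33.6% and 28.3% were called in these directions. With the length and GC offset the numbers of MRP genes were 46 and 7, and the share of all genes under it is not given here. Of the genes named by rule, the difference was called for Kat5 (log2 -2.82), Mrpl17 (-1.81), Mrpl12 (-1.62), Mrpl19 (-1.52), Mrps16 (-1.45), Mrpl41 (-1.45), Mrps18c (-0.90), Mrps18b (-0.82), Mrps12 (-0.81), Mrps36 (-0.43) and, with the opposite sign, Mrpl37 (0.35). The value for Mrps36 became 0.085 with the length and GC offset (edgeR adjusted p = 0.545), and its call was also lost without MATIP 4-OHT replicate 1. Mrps16, Mrpl41 and Mrps18c were higher in both treated MAflox libraries and lower in both treated MATIP libraries than in their controls, but with the offset the MAflox rise of Mrpl41 became a fall (log2 -0.15) and those of Mrps18c (-0.13) and Mrps16 (0.15) were not called. Groups of 2 libraries are too small for a check of single outlying samples.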

How the results depend on the processing

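With 2 libraries a group, the spread is shared over groups, and a group left with 1 library is assumed to vary like the others. MATIP gave 63 to 66 falls and 2 to 3 rises when 1 library was left out, MAflox 21 to 26 and 11 to 16, the difference of responses 51 to 60 negative and 1 to 2 positive, and the EtOH comparison 3 to 11 lower and 1 to 2 higher. The EtOH comparison had 1 gene higher under DESeq2, library totals, no filter or only the groups compared, and 4 with the length and GC offset. MAflox had 7 rises and 48 falls with library totals, and 10 and 54 with the offset, which gave 7 positive differences. Among the genes named by rule for each contrast, the offset reversed Mrpl24 (-0.034), Mrps18c (-0.13), Mrps33 (-0.22) and Mrps36 (-0.56) in MAflox and the difference for Mrps36 (0.085). The median of all genes became -0.15 (MAflox) and -0.13 (MATIP) with library totals, and 0.063 for the difference without a filter. The causes were not tested. Over all genes replicate numbers did not pair libraries: deviations of same-numbered libraries correlated between -0.04 and 0.03 over 13722 genes. Over the 77 MRP genes these correlations ran from -0.19 to 0.21. A replicate block left 17 rises and 27 falls in MAflox, 3 and 66 in MATIP, 57 negative and 1 positive difference, and 10 lower and 2 higher with EtOH. The block with the offset gave 10 and 54 in MAflox, 7 positive differences, 4 higher with EtOH, and -0.034 (Mrpl24), -0.13 (Mrps18c), -0.22 (Mrps33), -0.56 (Mrps36) and 0.081 (difference, Mrps36). Of the values of named genes under alternatives, direction and call were kept in 202 of 220 for MAflox, 215 of 220 for MATIP, 242 of 252 for the difference and 177 of 198 with EtOH.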
